A study of Homo sapiens with 20 samples.

Results

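KLF2, KLF4, KLF6, KLF10, EGR1, IER2, IER3 and IER5 are genes of the early transcriptional response, and the chromatin around these 8 genes was described out of 19970 protein-coding genes of the RefSeq annotation (GRCh38.p14). The members were taken by symbol. Each window was the gene body plus 100 kb on each side, and every called peak that overlapped a window was counted. The 8 windows held 149 and 150 H3K27ac peaks in MLL4-KO cells, against 296 and 417 in WT cells, out of lists of 65050 and 61959 peaks in MLL4-KO cells and 139104 and 198757 in WT cells. Both groups were HCT116, an established human colorectal carcinoma line, either with a knockout of MLL4 (KMT2D, a histone H3 lysine 4 methyltransferase of enhancers) or with wild-type MLL4. ChIP-seq was made for 6 targets in each genotype, with 2 libraries per genotype for H3K27ac, H3K4me3 and p53 and 1 per genotype for H3K4me1, MLL4 and MLL1 (KMT2A), so the values of the last 3 targets have no replicate check. The labels name no treatment, do not say how many knockout clones were used, and do not say that replicates were separate cultures, so any p-value measures only the spread between these libraries.

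Early genes are transcribed within minutes of a growth factor or stress signal, without new protein synthesis, and their promoters are held in an open, acetylated state before the signal arrives. EGR1 is the textbook case: ERK signalling activates ELK factors, which act with SRF, and SRF binds CArG boxes in its promoter. KLF proteins are zinc-finger transcription factors that bind GC-rich and CACCC elements, EGR1 is a zinc-finger factor of GC-rich sites, and the IER proteins are products named for their immediate early response. H3K4me1 marks enhancers and promoter flanks, H3K27ac active enhancers and promoters, and H3K4me3 active promoters.

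The promoters of 6 of the 8 genes were found in the RefSeq promoter table (250 bases before to 50 after the gene start, GRCh38.p14), those of KLF2, KLF4, KLF6, EGR1, IER2 and IER5. EGR1 is shown because its promoter held CArG boxes, which none of the other 5 did. KLF2 and IER5 were chosen after their values were seen, KLF2 for the highest number of GC boxes among the 6 and IER5 for the largest MLL1 difference among the 8 genes. Capitals mark CArG boxes in EGR1 at chr5:138465229-138465528 (+), GC boxes (GGGCGG on either strand) in KLF2 at chr19:16324576-16324875 (+), and a long-form ETS site (CCGGAA on either strand) in IER5 at chr1:181088450-181088749 (+).
EGR1: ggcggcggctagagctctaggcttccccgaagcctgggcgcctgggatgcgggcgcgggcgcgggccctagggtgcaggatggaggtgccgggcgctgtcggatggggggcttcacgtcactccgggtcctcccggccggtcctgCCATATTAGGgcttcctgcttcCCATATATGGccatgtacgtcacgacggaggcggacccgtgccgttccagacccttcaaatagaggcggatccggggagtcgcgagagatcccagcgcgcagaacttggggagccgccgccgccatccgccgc
KLF2: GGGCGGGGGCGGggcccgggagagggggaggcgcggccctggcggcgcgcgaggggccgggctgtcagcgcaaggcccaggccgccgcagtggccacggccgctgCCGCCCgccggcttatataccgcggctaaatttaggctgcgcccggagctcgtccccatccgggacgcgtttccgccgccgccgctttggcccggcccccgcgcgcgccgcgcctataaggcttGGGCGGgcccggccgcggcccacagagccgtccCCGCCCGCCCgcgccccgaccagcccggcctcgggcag
IER5: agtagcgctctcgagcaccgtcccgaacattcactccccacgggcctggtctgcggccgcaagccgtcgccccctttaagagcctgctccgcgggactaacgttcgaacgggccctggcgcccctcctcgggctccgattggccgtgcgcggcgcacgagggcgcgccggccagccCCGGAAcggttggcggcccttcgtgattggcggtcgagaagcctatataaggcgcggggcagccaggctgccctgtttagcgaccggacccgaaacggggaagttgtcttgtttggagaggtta
The EGR1 promoter held 2 CArG boxes, with first bases at -105 and -83 counted from the gene start as 0. A CArG box was present in 1.25% of the 22131 coding promoters of the same length. GC boxes numbered 6 in KLF2, 4 each in KLF4 and IER2, 2 in KLF6, and 0 in EGR1 and IER5, and 56.3% of all promoters held at least 1. The last pair in KLF2 overlap. The long-form ETS site CCGGAA was found in IER2 and IER5, against 21.2% of all promoters. The shorter core GGAA (TTCC on the other strand) was not counted, and TTCC lies between the 2 CArG boxes of EGR1. The short form of the cAMP response site, TGACG, was found in KLF4, EGR1 and IER2, against 27.9%. CACCC was found in EGR1 and IER2, against 63.4%. These 6 windows held no match to the full cAMP response site (TGACGTCA), present in 2.26% of all promoters, and none to the TATA sequence (TATAAA), present in 9.46%. They also held no match to the AP-1 site (TGANTCA), present in 6.15%, and none to a single repeat of the p53 element, present in 6.23%. Variants of the TATA sequence were not counted, and the variant TATAAG lies in the KLF2 and IER5 windows. GC content was 80.7% in KLF2 and between 67.3% and 70.7% in the other 5, with a median of 62.3% over all promoters. These matches describe letters in a window and do not show binding.

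Several properties of the lists bear on all values. Lists of MLL4-KO cells were shorter for H3K27ac (above) and for H3K4me1, with 43636 peaks in MLL4-KO cells and 125507 in WT cells. The p53 list of MLL4-KO replicate 2 stood apart with 62248 peaks, against 24972 in MLL4-KO replicate 1 and 36525 and 32631 in WT cells. The p53 list of WT replicate 2 had the highest fold enrichment. Over promoters called in every p53 library its median was 18.3, against 9.06 in WT replicate 1 and 7.26 and 9.23 in MLL4-KO cells. Read depth is unknown, and its part in these differences was not tested. A called peak in a population of cells cannot separate fewer cells with a mark from less of the mark per cell. Of 12 genes that mark colon epithelium, 10 had an H3K4me3 peak at the promoter in every library (CDX1 and VIL1 did not), as did 1 of 5 blood genes and 1 of 6 fibroblast and muscle genes. Over the promoters called in every library of a target (12269 for H3K27ac, 10422 for H3K4me1, 7895 for p53, 11649 for H3K4me3 and 10954 for MLL1), the median log2 ratio of fold enrichment, MLL4-KO over WT, was -0.95 for H3K27ac, -0.53 for H3K4me1, -0.59 for p53, -0.06 for H3K4me3 and 1.64 for MLL1. The members' promoter values are read against these medians, and all promoters below means those called in every library of the target. Fold enrichment is the authors' own value per peak, ChIP over local background, and is described without a test. The promoter value of a gene is the highest fold enrichment of any peak within 1 kb of its start, or of either end for KLF10 and IER3, whose strand the sequence table does not give. The promoter width is the width of that single peak, so a marked stretch called as several peaks counts as narrow.

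MLL4 itself was called 0 times in the 8 windows in MLL4-KO cells and 91 times in WT cells. In WT cells, 5 of the 8 promoters had an MLL4 peak, against 36.3% of all coding promoters. IER3, which modulates cell survival under stress, had the highest promoter value, a fold enrichment of 30.0 over 1090 bp. KLF10, a factor induced early by TGF-beta, had 8.34, KLF4, a regulator of epithelial differentiation in the gut, had 5.84, EGR1 had 5.00 and IER5, which acts on the heat shock factor HSF1, had 3.33. KLF2, KLF6 and IER2 had no called MLL4 peak at the promoter. Away from coding promoters, all 77 MLL4 regions of WT cells were absent from the MLL4-KO list, against 99.8% of such regions across the genome. They were unevenly spread, with 31 around IER2, 13 around KLF10, 12 around EGR1, 11 around KLF2, 7 around IER3, 2 around IER5, 1 around KLF4 and 0 around KLF6. KLF6 thus had no called MLL4 peak anywhere in its window in either genotype. Most of the single WT list was weak, as 8815 of its 56770 peaks passed a −log10 q-value limit of 5. Under that limit the windows held 18 distal MLL4 regions of WT cells, all absent from the MLL4-KO list. A promoter or region without a call may still carry MLL4 below the calling limit.

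H3K27ac was called at the promoters of all 8 genes in all 4 libraries, as at 61.4% of coding promoters. Fold enrichment before scaling was lower in both MLL4-KO libraries than in both WT libraries at 7 of the 8, with EGR1 the exception, against 88.0% of the 12269 promoters called in every library, and scaling to the median promoter turned IER2 to the higher side and made 5 genes overlap. The members' share lay near that background, and their median log2 ratio of -0.98 lay close to the -0.95 of all promoters. KLF6, a broadly expressed KLF factor, had 55.7 and 34.7 in MLL4-KO cells, against 148 and 158 in WT cells. Its WT values were the highest of the 8, and its log2 ratio of -1.80 was the lowest, at percentile 6.96 of all promoters. KLF2, a factor of endothelial and T cell quiescence, had 19.0 and 13.7 in MLL4-KO cells, against 24.5 and 42.2 in WT cells. KLF4 had 10.8 and 12.8 in MLL4-KO cells, against 20.9 and 23 in WT cells. KLF10 had 37.6 and 26.8 in MLL4-KO cells, against 60.7 and 63.7 in WT cells. The groups did not overlap at any of the 4 KLF genes, and KLF2, KLF4 and KLF10 had log2 ratios of -1.0, -0.90 and -0.97, close to that of the median promoter.

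EGR1 had 69.1 and 75.8 in MLL4-KO cells, against 110 and 65.8 in WT cells. Its groups overlapped, and its log2 ratio of -0.23 stood at percentile 93.0 of all promoters. IER2, a nuclear early response protein, had 51.9 and 65.7 in MLL4-KO cells, against 92.9 and 82.8 in WT cells. IER3 had 34.1 and 35.2 in MLL4-KO cells, against 55.5 and 97.0 in WT cells. IER5 had 10.9 and 9.09 in MLL4-KO cells, against 19.7 and 31.2 in WT cells. The 3 IER genes had log2 ratios of -0.59, -1.08 and -1.32 in that order, with both MLL4-KO libraries below both WT libraries. Once each library was divided by its median promoter, EGR1 and IER2 had both MLL4-KO libraries above both WT libraries, by 0.80 and 0.44 in log2, and KLF6 alone remained below, at -0.77. The other 5 overlapped on that scale. Of all promoters, 32.3% were above and 21.6% below on that scale.

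The highest H3K27ac peak at the promoter was narrower in both MLL4-KO libraries than in both WT libraries at 7 of the 8 genes, against 47.4% of all promoters. The largest difference was at KLF4, with peaks of 657 and 591 bp in MLL4-KO cells, against 4092 and 4156 bp in WT cells. KLF2 had peaks of 2860 and 475 bp in MLL4-KO cells, against 3057 and 3908 bp in WT cells. IER5 had 1552 and 1446 bp in MLL4-KO cells, against 2246 and 2298 bp in WT cells. KLF6 overlapped, with 7559 and 5423 bp in MLL4-KO cells and 7814 and 3786 bp in WT cells. The median log2 width ratio was -0.34 over the members and -0.26 over all promoters.

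**Figure D1:**
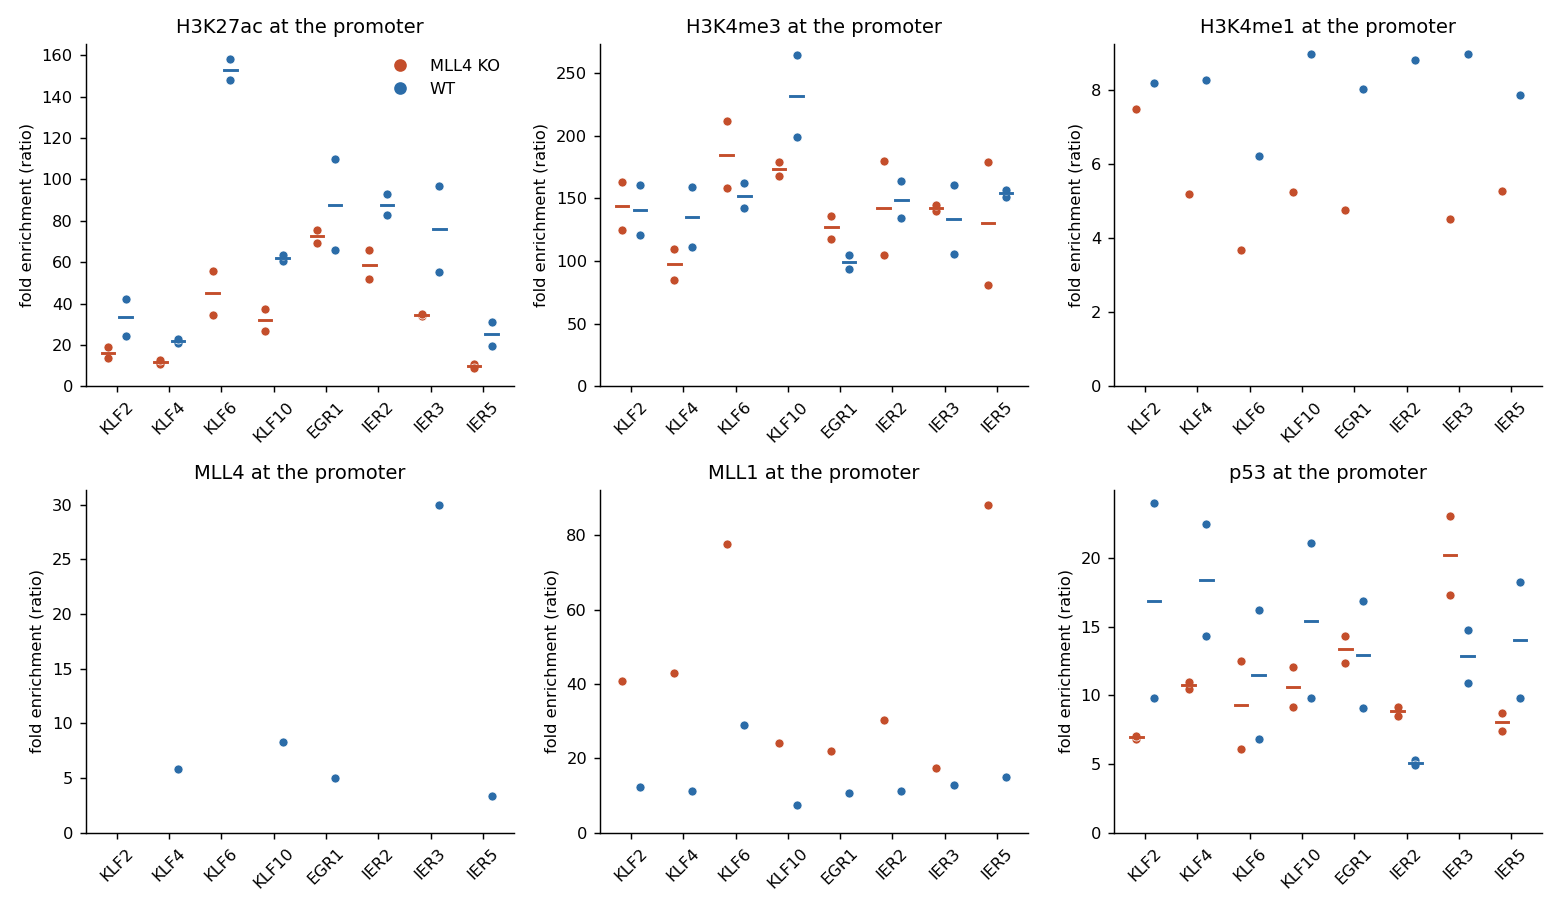
Fold enrichment (ratio, linear axis starting at 0) of the highest peak at each gene's promoter for the 6 targets, with 1 point per library, MLL4-KO left of WT, and a bar at the mean where a group has 2 libraries. H3K27ac points of MLL4-KO cells lie below those of WT cells at every gene but EGR1, where they overlap, although EGR1 and IER2 lie above WT once libraries are scaled to the median promoter; MLL1 points lie above WT at all 8, although scaling puts KLF6, EGR1, IER2 and IER3 below, MLL4 points exist in WT cells only, and a missing point is a promoter with no called peak.

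H3K4me3 was called at all 8 promoters in all 4 libraries, against 58.3% of coding promoters. The members' median log2 ratio was -0.04 and that of all promoters -0.06. KLF10 had 168 and 179 in MLL4-KO cells, against 199 and 264 in WT cells. KLF4 had 84.7 and 110 in MLL4-KO cells, against 111 and 159 in WT cells. Both were below WT in both MLL4-KO libraries, and those 2 of 8 compare with 21.9% of all promoters. EGR1 was the single member above WT in both MLL4-KO libraries, with 118 and 136 in MLL4-KO cells and 93.5 and 105 in WT cells, against 10.8% of all promoters, and its H3K4me3 peaks were also wider, 4925 and 4980 bp in MLL4-KO cells against 4051 and 3924 bp in WT cells. The other 5 overlapped in fold enrichment. KLF2 had 125 and 163 in MLL4-KO cells, against 121 and 161 in WT cells. KLF6 had 158 and 212 in MLL4-KO cells, against 142 and 162 in WT cells. Replicates of 1 genotype differed as much as the genotypes at the IER genes, most of all in MLL4-KO cells at IER5. IER2 had 180 and 105 in MLL4-KO cells, against 134 and 164 in WT cells. IER3 had 140 and 145 in MLL4-KO cells, against 106 and 161 in WT cells. IER5 had 81.1 and 179 in MLL4-KO cells, against 151 and 157 in WT cells. Division by the median promoter placed KLF2 and KLF6 above WT by 0.16 and 0.39 in log2, beside EGR1 at 0.48, and left KLF4 and KLF10 below WT at -0.34 and -0.28, where 28.1% of all promoters lay above and 17.8% below. H3K4me3 peaks were wider in both MLL4-KO libraries at 5 of the 8 promoters, against 48.1% of all promoters, and narrower at KLF10, against 1.89%.

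H3K4me1, with 1 library per genotype, was called at 7 of the 8 promoters in MLL4-KO cells and at all 8 in WT cells, against 69.9% of coding promoters in WT cells. The missing one was IER2, with no called peak in MLL4-KO cells and 8.80 over 6221 bp in WT cells, and 25.3% of WT promoters had no peak in MLL4-KO cells. This depends on the 1 kb limit, since MLL4-KO peaks of 5.42 over 1734 bp and 3.94 over 1794 bp lay farther out within the 2 WT domains that flank the IER2 start. At the other 7, fold enrichment before scaling was lower in MLL4-KO cells, against 83.5% of promoters called in both, and scaling to the median promoter turned KLF2 to the higher side. IER3 had a fold enrichment of 4.51 in MLL4-KO cells and 8.97 in WT cells, a log2 ratio of -0.99 that was the lowest of the 7. KLF2 had 7.49 in MLL4-KO cells and 8.18 in WT cells, a log2 ratio of -0.13 that was the highest. The other 5 lay between these, with log2 ratios of -0.58 to -0.77. Among them EGR1 had 4.75 in MLL4-KO cells and 8.03 in WT cells. KLF10 had 5.24 in MLL4-KO cells and 8.96 in WT cells. KLF4 had 5.18 in MLL4-KO cells and 8.26 in WT cells. The weakest of the 7 in both genotypes was KLF6, with 3.69 in MLL4-KO cells and 6.21 in WT cells. IER5 had 5.26 in MLL4-KO cells and 7.87 in WT cells. The difference was plainer in width than in fold enrichment. The highest H3K4me1 peak at IER3 spanned 1141 bp in MLL4-KO cells and 18400 bp in WT cells. The one at KLF10 spanned 1767 bp in MLL4-KO cells and 10944 bp in WT cells. The one at KLF2 spanned 2304 bp in MLL4-KO cells and 10562 bp in WT cells. The WT peaks at these 3 genes reached far beyond the gene starts, as did that at EGR1, with 2801 bp in MLL4-KO cells and 11194 bp in WT cells. KLF4 had 664 bp in MLL4-KO cells and 5410 bp in WT cells. KLF6 had 664 bp in MLL4-KO cells and 3377 bp in WT cells. The smallest difference was at IER5, with 1058 bp in MLL4-KO cells and 1627 bp in WT cells. The median log2 width ratio of these 7 was -2.35, and that of all promoters -1.19, with 81.5% of all promoters narrower. Relative to the median promoter, KLF2 lay above WT by 0.43 in log2 fold enrichment, and the other 6 lay at -0.44 to -0.03, while 52.4% of all promoters lay above and 47.6% below.

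MLL1, also with 1 library per genotype, was called at all 8 promoters in both genotypes, against 54.9% of coding promoters. Fold enrichment before scaling was higher in MLL4-KO cells at all 8, as at 97.8% of these promoters (2.22% were lower), and scaling to the median promoter turned 4 of the 8 to the lower side, where 49.5% of all promoters lay. The members' median log2 ratio of 1.55 lay under the 1.64 of all promoters, so their order is given relative to it. IER5 had 88.1 in MLL4-KO cells and 15.0 in WT cells, a log2 ratio of 2.55 at percentile 94.2. IER3 had 17.5 in MLL4-KO cells and 12.9 in WT cells, a log2 ratio of 0.44 at percentile 6.59. These 2 genes were the extremes of the 8, and relative to the median promoter they lay on opposite sides, IER5 at 0.92 and IER3 at -1.19. IER3 was also the promoter with the strongest MLL4 peak in WT cells. KLF6, with 77.7 in MLL4-KO cells and 29.0 in WT cells, had the highest WT value. EGR1 had 22 in MLL4-KO cells and 10.7 in WT cells. IER2 had 30.4 in MLL4-KO cells and 11.3 in WT cells. KLF6, EGR1 and IER2 lay on the lower side of the median promoter, at -0.21, -0.60 and -0.20. KLF4 had 42.9 in MLL4-KO cells and 11.3 in WT cells. KLF2 had 40.9 in MLL4-KO cells and 12.4 in WT cells. KLF10 had 24.0 in MLL4-KO cells and 7.52 in WT cells. These 3 lay on the upper side of the median promoter, at 0.29, 0.10 and 0.04. MLL1 peaks were wider in MLL4-KO cells at all 8, against 86.1% of promoters, with the largest difference at EGR1, 4664 bp in MLL4-KO cells and 998 bp in WT cells.

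p53, the tumour suppressor and transcription factor, was called at all 8 promoters in all 4 libraries, against 39.5% of coding promoters. Fold enrichment at IER2 was 9.19 and 8.51 in MLL4-KO cells, against 5.29 and 4.93 in WT cells. At IER3 it was 17.3 and 23.1 in MLL4-KO cells, against 10.9 and 14.8 in WT cells. Both genes were higher in both MLL4-KO libraries, a pattern of 5.73% of promoters, and their log2 ratios of 0.79 and 0.66 stood at percentiles 98.7 and 97.6. Relative to the median promoter these differences were 1.45 and 1.31. KLF2 had 6.84 and 7.07 in MLL4-KO cells, against 9.82 and 24.0 in WT cells. KLF4 had 10.5 and 11 in MLL4-KO cells, against 14.4 and 22.6 in WT cells. IER5 had 8.70 and 7.44 in MLL4-KO cells, against 9.82 and 18.3 in WT cells. These 3 were lower in both MLL4-KO libraries, as were 44.1% of promoters, but KLF4 and IER5 overlapped after division by the median promoter. EGR1 had 14.3 and 12.4 in MLL4-KO cells, against 9.06 and 16.9 in WT cells. KLF6 had 6.12 and 12.5 in MLL4-KO cells, against 6.80 and 16.2 in WT cells. KLF10 had 9.19 and 12.1 in MLL4-KO cells, against 9.82 and 21.1 in WT cells. The groups of these 3 genes overlapped. Division by the median promoter put both MLL4-KO libraries above both WT libraries at EGR1 by 0.76 and at KLF10 by 0.20, as at 29.9% of promoters. Peaks were wider in both MLL4-KO libraries at 6 of the 8 genes, against 52.6% of promoters, with IER2 at 1250 and 1639 bp in MLL4-KO cells and 203 and 278 bp in WT cells.

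**Figure D2:**
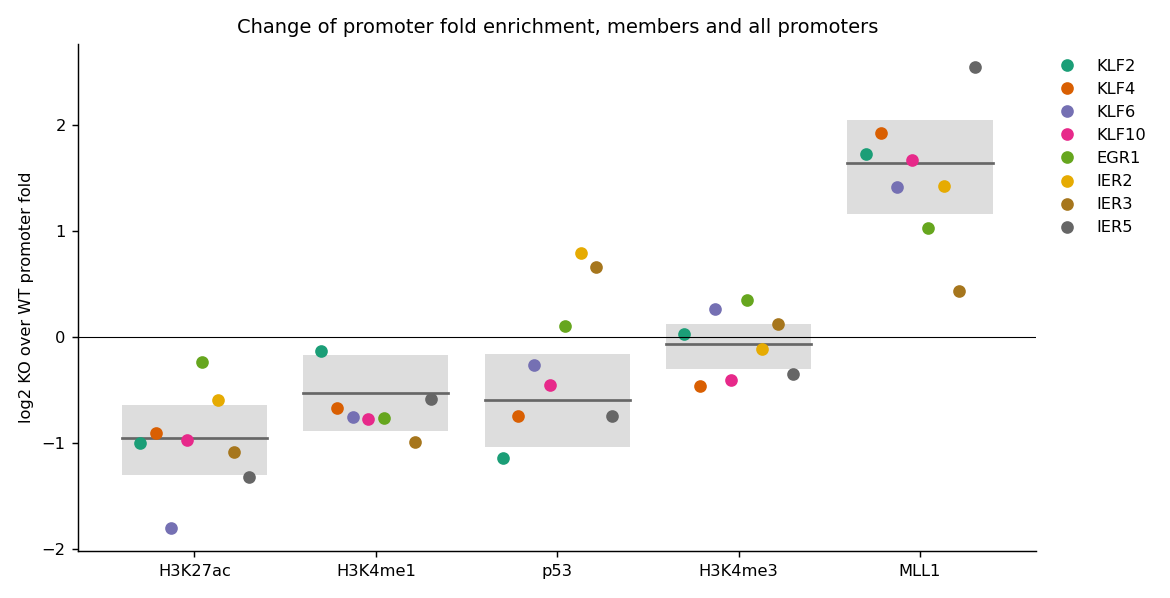
Log2 ratio of promoter fold enrichment, MLL4-KO over WT (vertical axis), for each of the 8 genes (coloured points) by target; the grey box spans the middle 50% of all promoters called in every library of that target and the dark line is their median. For H3K27ac, KLF6 and IER5 lie below the box, EGR1 and IER2 above it, and the others inside. For H3K4me1, IER3 lies below the box and KLF2 above it. For p53, IER2, IER3 and EGR1 lie above the box and KLF2 below it. For H3K4me3, KLF4, KLF10 and IER5 lie below the box and KLF6 and EGR1 above it. For MLL1, IER5 lies above the box and IER3 and EGR1 below it. Ratios are before scaling, which moves each target's line to about 0 and reverses the sign of some members. These are KLF2, KLF4, KLF10, EGR1 and IER2 for H3K27ac, KLF2 for H3K4me1, and KLF6 and KLF10 for p53. They are also IER2 for H3K4me3, and KLF6, EGR1, IER2 and IER3 for MLL1.

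Regions over 1 kb from any coding start were taken as distal, and peaks of a target that overlapped were merged across its libraries. A region was called lost if it was present in every WT and no MLL4-KO library, gained in the reverse case, and kept if present in all. Distal H3K27ac peaks in the windows numbered 126 and 129 in MLL4-KO cells, against 276 and 396 in WT cells, and covered 108 and 97.5 kb in MLL4-KO cells, against 308 and 389 kb in WT cells. The libraries did not overlap, and the log2 ratio of peak number was -1.37, with p = 0.333 by a two-sided exact permutation test, the smallest p that 2 against 2 libraries allow. With each list cut to the length of the shortest by −log10 q-value the ratio was -0.15, and with peaks of a −log10 q-value of at least 5 it was -1.85. Of 227 distal regions of WT cells, 133 were lost, 58.6% (95% Wilson interval 52.1% to 64.8%, for counting error over regions only), against 61.5% across the genome. With lists of equal length the share lost was 24.7%, against 28.8% across the genome. In the full lists a further 53 were kept. Gained regions numbered 3 of 58 regions of MLL4-KO cells, against 4.98% across the genome. At coding promoters within the windows, 0 of 18 WT regions were lost (95% Wilson interval 0.0% to 17.6%), against 17.5% across the genome. The loss of distal H3K27ac in these windows was thus near the genome's share. All of their WT promoter regions stayed called in at least 1 MLL4-KO library, but the interval for these 18 includes the genome's share.

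**Figure D3:**
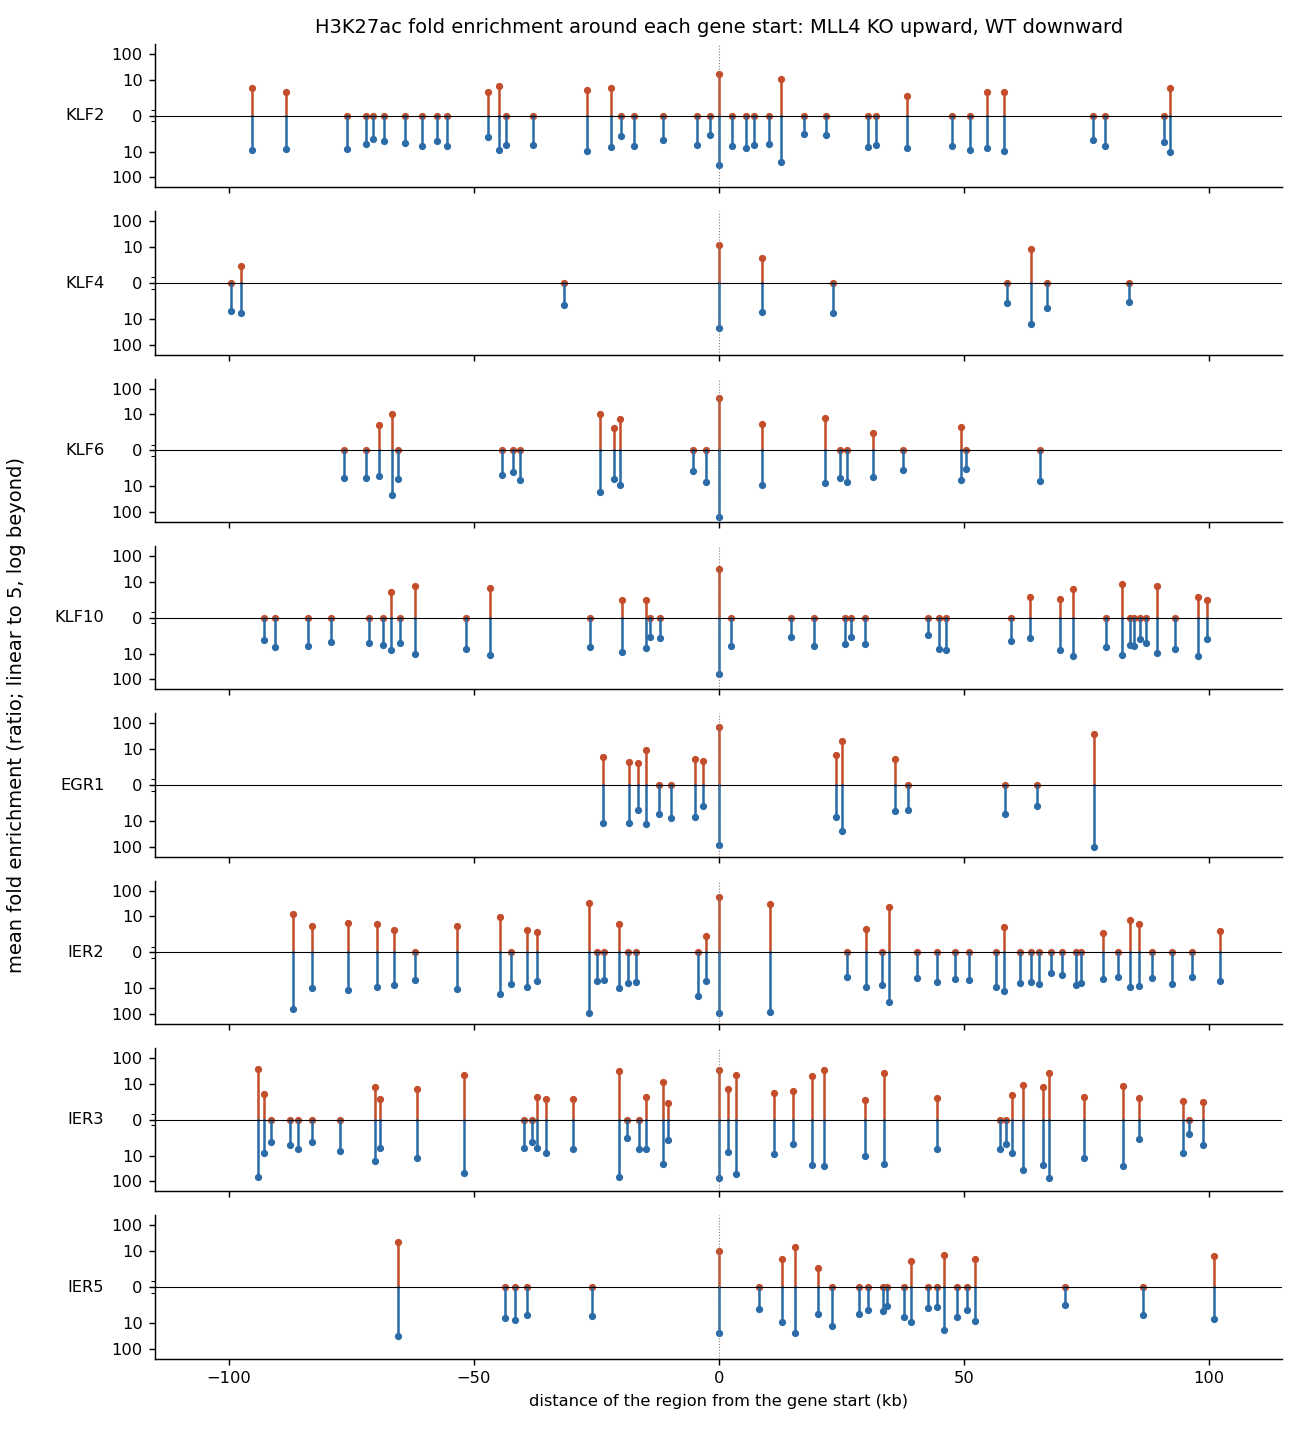
H3K27ac regions present in both WT libraries by distance from the gene start (horizontal axis, kb; for KLF10 and IER3 from the nearer gene end along the chromosome), coding promoters of neighbours included, with mean fold enrichment (ratio, linear to 5 and logarithmic beyond) over the libraries that called the region drawn upward for MLL4-KO and downward for WT. Points at 0 on the upper side are regions called in no MLL4-KO library; the tall regions mostly have a bar on both sides and the short ones often do not.

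Lost and kept regions differed in their strength in WT cells. The lost regions had a median WT fold enrichment of 4.86 and a median width of 777 bp, and the kept ones 11.3 and 2120 bp. Of 26 distal regions of at least 10-fold in both WT libraries, 1 was lost, against 3.20% across the genome, and of 10 regions of at least 20-fold none was, against 0.188%. Of the 53 kept regions, 49 had a lower mean in MLL4-KO cells before scaling, against 16324 of 17757 across the genome. Their median log2 ratio was -0.88. The corresponding median across the genome was -0.74.

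**Figure D4:**
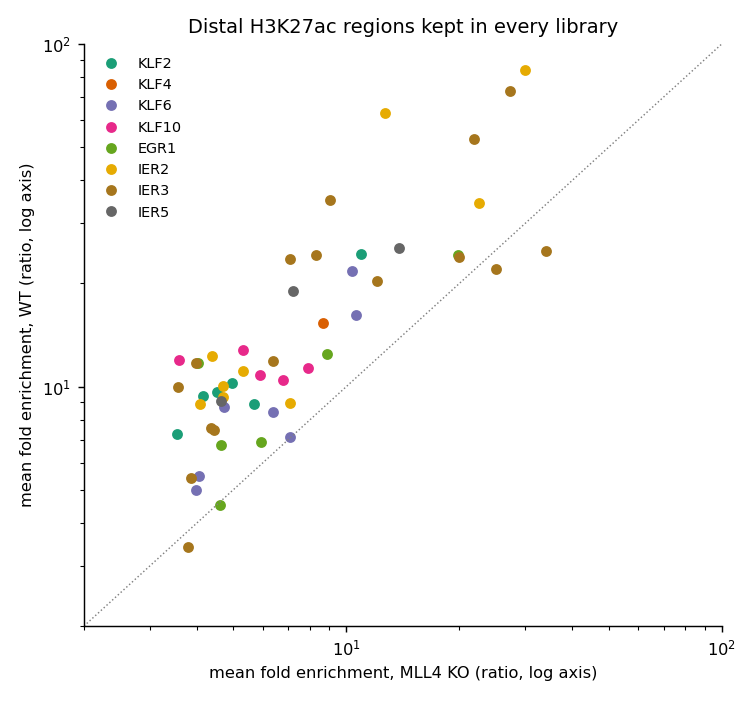
Mean fold enrichment (ratio, logarithmic axes) of the 53 distal H3K27ac regions called in all 4 libraries, MLL4-KO on the horizontal and WT on the vertical axis, coloured by gene window, with a dotted line of equal values. Of the points, 49 lie on the WT side of the line, and 3 of the 4 others belong to IER3.

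The windows differed in their shares. IER3 lost 12 of 38 distal H3K27ac regions and EGR1 5 of 13, 31.6% and 38.5%. KLF2 lost 28 of 39, IER5 17 of 24, KLF10 27 of 39 and KLF4 6 of 9, or 71.8%, 70.8%, 69.2% and 66.7%. KLF6 lost 13 of 22 and IER2 25 of 43, 59.1% and 58.1%. The median over the 8 genes was 62.9%, and over 17930 coding genes with such regions it was 60.3%. Windows with many neighbours are shared ground: the IER3 window held 8 other coding genes and that of IER2 held 6, while those of KLF4 and KLF6 held none, and no peak can be assigned to a gene by distance alone.

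**Figure D5:**
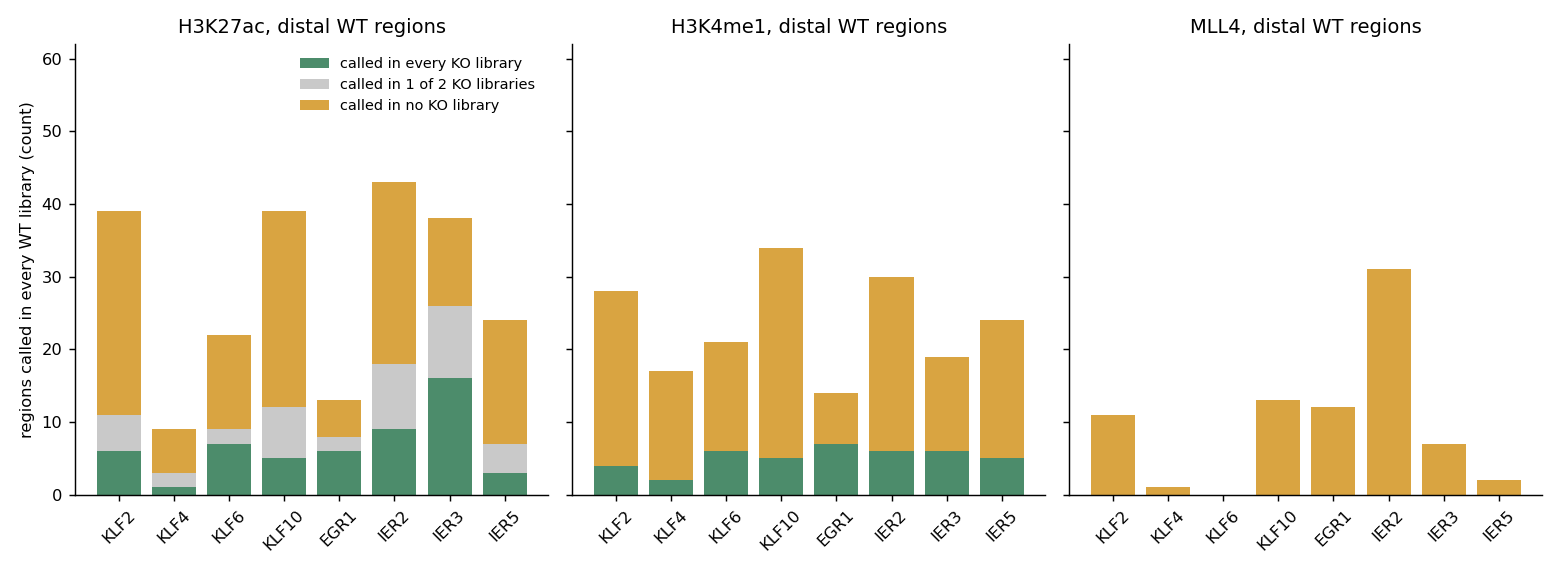
Number of distal regions present in every WT library (vertical axis, count starting at 0) per gene for H3K27ac, H3K4me1 and MLL4, divided by whether they were called in every MLL4-KO library (green), in 1 of 2 (grey) or in none (amber). Amber fills the MLL4 bars completely and most of the H3K4me1 bars, and for H3K27ac it is smallest as a share at IER3 and EGR1.

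The strongest distal H3K27ac region of each window by mean WT fold enrichment was kept at all 8 genes. For KLF2 it lay 12.6 kb downstream of the start (chr19:16337402-16340659, no annotated gene), with 11.3 and 10.6 in MLL4-KO cells and 23.6 and 25 in WT cells. For KLF4 it lay at 63.8 kb downstream in the non-coding gene LINC01509 (chr9:107424627-107426001), with 9.19 and 8.10 in MLL4-KO cells and 17.9 and 12.7 in WT cells. Both MLL4-KO libraries were below both WT libraries at each of these regions, and both overlapped an MLL4 peak of WT cells. The KLF4 region also overlapped a p53 peak that was called in both MLL4-KO libraries, at 4.52 and 4.45, and in neither WT library. For KLF6 the strongest region lay at -66.8 kb (upstream; chr10:3851994-3854391, no annotated gene), with 9.36 and 11.4 in MLL4-KO cells and 24.5 and 19.0 in WT cells. For KLF10 it lay 72.3 kb from the gene (chr8:102728010-102732675, no annotated gene), with 5.46 and 5.17 in MLL4-KO cells and 14.0 and 11.5 in WT cells. At the KLF10 region, H3K27ac was kept while the overlapping H3K4me1 domain, 12.7 in WT cells and the strongest of its window, was not called in MLL4-KO cells.

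For EGR1 the strongest distal region lay 25.1 kb downstream in the non-coding gene LOC124901078 (chr5:138490594-138494060), with 25.9 and 13.8 in MLL4-KO cells and 28.0 and 20.3 in WT cells, and the groups overlapped. It carried H3K4me3 in all 4 libraries, at 39.8 and 86.3 in MLL4-KO cells and 69.6 and 47.5 in WT cells, and p53 in all 4, at 5.98 and 9.52 in MLL4-KO cells and 10.6 and 16.2 in WT cells. For IER2 it was a merged stretch of 13405 bp starting 10.3 kb downstream (chr19:13160740-13174144, no annotated gene), with 27.6 and 32.4 in MLL4-KO cells and 96.2 and 71.8 in WT cells. The longest peak in this stretch spanned 3855 and 3466 bp in MLL4-KO cells, against 12316 and 13400 bp in WT cells. For IER3 it lay 67.4 kb from the gene in the non-coding gene LINC00243 (chr6:30811949-30818523), with 27.7 and 26.8 in MLL4-KO cells and 70.8 and 75.3 in WT cells. The IER2 and IER3 regions were the strongest of the 8 in WT cells, and at neither did the libraries of the genotypes overlap. A second IER3 region, chosen after its values were seen, ran the other way: 21.4 kb from the gene (chr6:30765911-30771306) H3K27ac was 29.9 and 38.3 in MLL4-KO cells and 26.1 and 23.6 in WT cells. An H3K4me3 peak inside it, in the non-coding gene HCG20, was called in no MLL4-KO library and at 12.9 and 13.5 in WT cells. For IER5 the strongest region lay 15.6 kb downstream (chr1:181104318-181105996, no annotated gene), with 12.6 and 15.1 in MLL4-KO cells and 29.6 and 21.3 in WT cells, and it overlapped an MLL4 peak of 6.67 in WT cells.

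The strongest lost region was at IER2, 11125 bp ending at -4.20 kb (upstream; chr19:13135091-13146215, over parts of NACC1 and STX10), with no called peak in MLL4-KO cells and 9.88 and 29.3 in WT cells. It overlapped 5 MLL4 peaks in WT cells. At IER5 the lost region was 23.2 kb downstream (chr1:181111867-181113951, no annotated gene), with no called peak in MLL4-KO cells and 10.2 and 17 in WT cells. It was the single lost region of at least 10-fold in both WT libraries, and the overlapping H3K4me1 domain of 15.2, the strongest around IER5, was likewise not called in MLL4-KO cells, although no MLL4 peak was called there in WT cells. At KLF4 the lost region lay 23.3 kb downstream in LINC01509 (chr9:107465578-107466511), with no called peak in MLL4-KO cells and 5.70 and 6.30 in WT cells. The p53 peak under it was called in MLL4-KO replicate 2 at 9.52 and not in replicate 1, and in WT cells at 13.6 and 15.5. At EGR1 it lay at -9.69 kb (upstream; chr5:138453639-138455794), with no called peak in MLL4-KO cells and 7.79 and 7.24 in WT cells. WT values of the strongest lost regions were 8.69 and 7.99 at KLF2, 8.70 and 5.00 at KLF6, 8.24 and 5.93 at KLF10, and 5.70 and 6.87 at IER3.

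Distal regions that lost and kept H3K27ac differed in what else was called there. Of the 133 lost regions, 89 overlapped H3K4me1 in WT cells, and in 85 of these H3K4me1 was called in WT cells only. Of the 53 kept regions, 52 overlapped H3K4me1 in WT cells, and 31 of these did so in both genotypes. Across the genome, H3K4me1 of WT cells overlapped 49.7% of lost and 91.2% of kept regions, against 66.9% and 98.1% in the windows. An MLL4 peak of WT cells overlapped 8 of the 133 lost regions (6.02%) and 17 of the 53 kept ones (32.1%). The same order was present across the genome, at 9.35% of lost and 26.8% of kept regions. H3K4me3 of any library overlapped 4 lost and 25 kept regions. With WT libraries alone, H3K4me3 overlapped 3.01% of lost and 43.4% of kept regions, against 1.96% and 36.0% across the genome. The kept regions were wider, which gives any peak more room to overlap, and this was not adjusted for.

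Distal H3K4me1 peaks in the windows numbered 78 in MLL4-KO cells and 191 in WT cells, covering 93.8 kb in MLL4-KO cells and 411 kb in WT cells. Of 187 distal WT regions, 146 were lost, 78.1% (95% Wilson interval 71.6% to 83.4%), against 85.5% across the genome. Gained regions numbered 6 of 47 in MLL4-KO cells, against 32.8% across the genome. By gene, EGR1 lost 7 of 14, IER3 13 of 19, KLF6 15 of 21, IER5 19 of 24, IER2 24 of 30, KLF10 29 of 34, KLF2 24 of 28 and KLF4 15 of 17. EGR1 and IER3 thus had the lowest shares for both marks, and KLF6, with no called MLL4 peak in its window, lay between the others.

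Distal H3K4me3 regions were few. Of 29 in WT cells, 8 were lost, 27.6% (95% Wilson interval 14.7% to 45.7%), against 12.4% across the genome, and all 8 lay around IER2 (5 of 10) and IER3 (3 of 6). Gained ones numbered 2 of 20, against 5.78%. Peak numbers were 29 and 22 in MLL4-KO cells, against 35 and 34 in WT cells, with a log2 ratio of -0.45 and p = 0.333 (two-sided exact permutation test). Distal MLL1 regions were exchanged in both directions: 40 of 62 WT regions were lost, 64.5% (95% Wilson interval 52.1% to 75.3%), against 77.0% across the genome, and 27 of 49 MLL4-KO regions were gained, against 70.0%. With peaks of a −log10 q-value of at least 5 the share lost was 33.3%, against 32.2% across the genome, and 8 regions were gained. Around IER2, 11 of 18 MLL1 regions of MLL4-KO cells were gained, and around IER3 7 of 9. The 22 kept MLL1 regions had a median log2 ratio of 0.17 before scaling, against 0.91 across the genome. Of them, 8 had a lower fold enrichment in MLL4-KO cells, against 825 of 5238 across the genome. Larger differences than this median were present at 2 of the strongest distal H3K27ac regions. At the kept region 25.1 kb downstream of EGR1, MLL1 was 35.6 in MLL4-KO cells and 6.16 in WT cells. At the one 15.6 kb downstream of IER5 it was 24.0 in MLL4-KO cells and 5.77 in WT cells.

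Most distal p53 regions of WT cells stayed called. Of 24 in both WT libraries, 1 was lost, 4.17% (95% Wilson interval 0.739% to 20.2%), against 17.9% across the genome, and 16 were kept. Without MLL4-KO replicate 2, whose list was the longest, 25% were lost, against 54.4% across the genome. With all libraries and peaks of a −log10 q-value of at least 5, 19.0% were lost, against 35.8% across the genome. Gained regions numbered 8 of 26, against 20.5% across the genome, and without MLL4-KO replicate 1 they numbered 48, with a share of 61.0% across the genome under that setting. Peak numbers were 33 and 79 in MLL4-KO cells, against 36 and 32 in WT cells, so the groups overlapped (log2 ratio 0.59, p = 0.667, two-sided exact permutation test), and the ratio was -0.04 without MLL4-KO replicate 2. All 16 kept regions had a lower mean fold enrichment in MLL4-KO cells before scaling, as did 6174 of 6793 across the genome. Their median log2 ratio was -0.88, against -0.97 across the genome. The WT means lean on WT replicate 2. Its distal p53 peaks in the windows had a median fold enrichment of 12.7, against 6.82 in WT replicate 1 and 4.6 and 5.08 in MLL4-KO cells. IER2 held 10 of the 16. Among its p53 regions, described after their values were seen, the strongest in WT cells lay 56.6 kb downstream within CACNA1A (chr19:13207038-13208030), with 3.48 and 7.14 in MLL4-KO cells and 18.1 and 37.4 in WT cells, and its groups did not overlap. In the same window, p53 was gained 1.22 kb downstream of the IER2 start, at 8.37 and 5.08, and 12.3 kb downstream, at 4.6 and 7.62. The kept region 2.28 kb downstream of the IER2 start overlapped, with 8.61 and 13.3 in MLL4-KO cells and 9.09 and 12.9 in WT cells. At IER5, p53 regions were kept at -42.4 kb within MR1 (chr1:181045663-181046320), with 4.08 and 5.08 in MLL4-KO cells and 9.06 and 16.2 in WT cells, and 16.2 kb downstream, with 6.48 and 10.3 in MLL4-KO cells and 5.94 and 17.2 in WT cells. At IER3, the p53 region 71.6 kb from the gene had 13.8 and 9.33 in MLL4-KO cells and 8.30 and 24.7 in WT cells. The groups overlapped at both of the last regions.

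A list of 24 relatives and regulators, namely other KLF and EGR genes, IER5L, the EGR corepressors NAB1 and NAB2, and SRF with its partners, was described in the same way. H3K27ac was called at the promoter in every library for 17 of 24 and lost at 0, against 12% of promoters called in WT cells, and H3K4me3 in every library for 18 and lost at 0, against 0.519%. H3K4me1 was lost at 4 of 21 WT promoters, against 25.3%, and gained at 2, KLF5 and KLF7, where 5.16% of promoters called in MLL4-KO cells were gained. The median log2 ratio of promoter H3K27ac was -0.57 over the 17, with 10 lower in both MLL4-KO libraries and 1 higher, beside -0.95, 88.0% and 0.791% over all promoters. The higher one was KLF9, named after its values were seen, with 22.8 and 30.5 in MLL4-KO cells and 15.6 and 11.9 in WT cells. MLL1 before scaling was higher in MLL4-KO cells at all 15 promoters called in both, with a median of 1.5 beside 1.64 over all promoters, and was gained at KLF8, KLF11 and KLF15, where 10.1% of promoters called in MLL4-KO cells were gained. KLF13, a KLF factor known from T lymphocytes, lost 50 of 59 distal H3K27ac regions, while the median share lost over the relatives was 50% for H3K27ac and 82.9% for H3K4me1.

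Genes with a promoter profile nearest to the members' mean profile were SMG1, ODAD4, CNP, IMP3 and SPINDOC, at Euclidean distances of 0.783, 1.00, 1.00, 1.02 and 1.08 over the log2 promoter values of 18 lists. The members lay farther from their own mean, between 2.01 for KLF10 and 3.96 for IER2, and ranked 641 to 4804 among 19970 genes, whose median distance was 7.78.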

How the data were processed

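The data were 18 peak lists, 1 per ChIP library; 2 inputs were not analysed on their own. Peaks were called with MACS2 2.1.1 on hg38, per the submitters' processing notes, for each library apart against the input of its genotype, per the names in the deposited lists. The aligner is not given in the sources used here, and depth per library is unknown. For each peak the authors deposited a fold enrichment (a ratio over local background), a −log10 p-value and −log10 q-value, and an integer score. H3K4me1 lists are broad and the others narrow, so folds were not compared between targets.

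Here peaks on chromosomes 1 to 22 and X were joined into regions per target if they shared 1 bp or more, and classed as promoter (within 1 kb of the start of a coding gene, or of either end where no strand is given) or distal. RefSeq tables on GRCh38.p14 gave genes and promoter sequences. Strand was known for 15811 of 19970 coding genes and 6 of the 8 members. KLF10 and IER3 had none and no promoter entry, and their distances follow genome coordinates. Groups came from the labels. Distal peak numbers were compared by an exact permutation test and shares given 95% Wilson intervals. Everything else is description. Results were recomputed with peaks of −log10 q-value 5 or more, lists of equal length, narrower windows, peaks covering most of the region, scaling to the median promoter, a replicate block, and leaving out each library. Scripts used Python 3.11.15, pandas 2.3.3, numpy 2.4.6, SciPy 1.17.1 and matplotlib 3.10.9 and were tested on simulated data. The members and lists were chosen with earlier results of these data known. All 8 members were named. Among relatives at most 6 with the largest change in called peaks were named, with exceptions stated. In each window the strongest distal H3K27ac region in WT cells and the strongest lost one were named. The 5 genes of nearest profile were named by the Euclidean distance of log2 of 1 plus the promoter fold.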

Additional observations from a re-analysis of the deposited data

How the results depend on the processing

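Of 138 values recomputed under an alternative for 19 results, 35 moved and 7 reversed, by a criterion that for a ratio with a test counts only its sign. The H3K27ac ratio of peak number, -1.37 in the main setting and -0.15 with lists of equal length, thus counts as unchanged. Replicate-block values were counted as unchanged without a comparison. The distal share of H3K27ac regions lost was 24.7% with lists of equal length, where the genome's share was 28.8%, and 77.4% when peaks had to cover 50 percent of the region. It was 66.2% for distal regions without an H3K4me3 peak, an alternative chosen after seeing the data, and 61.9% to 71.8% with 1 library left out. H3K4me1 loss was 94.5% at the stricter q-value, 56.0% with equal lists (67.7% across the genome), 94.1% with that cover and 92.2% without H3K4me3. MLL1 loss was 33.3% at the stricter q-value (32.2% across the genome). The share of p53 regions lost was 19.0% at the stricter q-value (35.8% across the genome) and 10.0% to 25% with 1 library left out (20.1% to 54.4%). Gained regions at the stricter q-value numbered 0 for H3K27ac and H3K4me1, 1 for H3K4me3, 8 for MLL1 and 2 for p53. With windows of 50 kb they numbered 1 for H3K4me3 and H3K4me1, 13 for MLL1 and 5 for p53. With equal lists they numbered 15 for H3K4me1 and 4 for p53, and for p53 they were 5 with that cover and 5 without the IER2 window, also chosen after seeing the data. With 1 library left out they ranged over 3 to 14 for H3K27ac, 2 to 4 for H3K4me3 and 9 to 48 for p53. No WT MLL4 region remained in the windows with equal lists, so no share was given. The cause of these differences between settings was not tested.

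The log2 ratio of p53 distal peak number reversed to -0.25 at the stricter q-value and ranged over -0.04 to 1.22 with 1 library left out, reversing without MLL4-KO replicate 2. That of H3K27ac was -0.15 with lists of equal length and -1.85 at the stricter q-value, and ranged over -1.64 to -1.11 with 1 library left out, and that of H3K4me3 over -0.65 to -0.25. Scaling to the median promoter reversed the members' median log2 fold ratio to 0.05 for H3K27ac, 0.09 for H3K4me3 and -0.08 for MLL1, and moved it to -0.20 for H3K4me1. With 1 library left out it ranged over -1.20 to -0.76 for H3K27ac and over -0.22 to 0.19 for H3K4me3, which reversed to 0.19 without MLL4-KO replicate 1 and to 0.14 without WT replicate 2. The labels do not say whether replicate numbers pair the libraries. The correlation of replicate 1 minus replicate 2 between genotypes over promoters was -0.11 for H3K27ac, -0.22 for H3K4me3 and 0.01 for p53. It cannot decide on pairing, because it does not register a shift shared by all promoters of a library. With the replicate block the log2 ratio of peak number was the same by construction, -1.37 for H3K27ac, -0.45 for H3K4me3 and 0.59 for p53. The exact permutation test over the signs of 2 pairs gave p of 0.5, 0.5 and 1.0. The smallest p it allows is 0.5. Crossing the numbers for H3K27ac and H3K4me3 gave p = 0.5 in both by the same exact test, again its smallest value. The block thus cannot show whether pairing matters. A peak list holds no value below the calling limit, so a lost region may still carry a weaker signal.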
